A study of Mus musculus with 4 samples.

Results

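The brush border is the lawn of microvilli on the luminal face of the intestinal enterocyte, and the enzymes anchored in it carry out the last steps of digestion. The data were searched for 9 of these enzymes, taken by gene symbol from the 31054 features counted in each library: the disaccharidases and other glycosidases Sis (sucrase-isomaltase), Lct (lactase), Mgam (maltase-glucoamylase) and Treh (trehalase), the intestinal alkaline phosphatase Alpi, and the peptidases Anpep (aminopeptidase N), Dpp4 (dipeptidyl peptidase 4), Enpep (glutamyl aminopeptidase) and Mme (neprilysin). All 9 were present in the 4 count matrices. The RNA was measured in single cells from intestinal epithelium of mice that carried a Bmi1-GFP reporter, in which green fluorescent protein marks cells that transcribe Bmi1. There was 1 library for each of 4 groups: embryos at day 12.5 (E12.5), embryos at day 17.5 (E17.5), adults, and adults after irradiation. All 4 groups carried the reporter. The dose of irradiation, the time after it, the gate of the sort and the number of animals are not given in the sources used here, and the gate sets which cell types are present. Each group has a single library, so nothing could be tested between groups and no value has a replicate. Intervals cover counting error only.

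In the mature gut these enzymes are known as products of villus enterocytes and are often used as markers of that cell. Lactase is known as the main disaccharidase of the suckling mouse, and sucrase-isomaltase and trehalase as enzymes whose genes come on around weaning. Dpp4 and Mme also cut peptide hormones, and Dpp4 is the enzyme that inactivates the incretins GLP-1 and GIP.

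After filtering, 4050 cells remained at E12.5, 4409 at E17.5, 3597 in adults and 3031 in irradiated adults, with a median of 18081.5, 11003, 3607 and 8554 UMIs (barcodes that count each captured RNA molecule once). Any pair of libraries shared between 6 and 12 cell barcodes. At E17.5, 938 cells had markers of pancreas, mesenchyme, smooth muscle or mesothelium and were left out of the comparisons between libraries, which used 3471 cells there. Cells were clustered without the 9 enzyme genes, and clusters were named from marker lists. Enterocyte-like cells numbered 717 at E17.5, 57 in adults and 93 in irradiated adults, and enteroendocrine-like cells 1363, 2089 and 1308. No enterocyte-like cluster was found at E12.5, where the cells had epithelial keratins and few lineage markers. Levels are given as CPM, the UMIs of a gene per 1e+06 UMIs summed over the cells of a library or class. The libraries were read from the 3′ end of transcripts, so that levels of different genes could be compared without a correction for length.

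The genes lie apart in the genome (mouse build GRCm38). Sis covers 72888557 to 72967863 on the minus strand of chromosome 3, and no other annotated gene lies within 20 kb of it. Lct covers 128284756 to 128328318 and Alpi 87098002 to 87101606 on the minus strand of chromosome 1, Mgam 40628831 to 40769123 on the plus strand of chromosome 6, and Treh 44673233 to 44686305 on the plus strand of chromosome 9. Anpep covers 79821803 to 79861059 on the minus strand of chromosome 7, Dpp4 62330073 to 62412231 on the minus strand of chromosome 2, Enpep 129269175 to 129332720 on the minus strand of chromosome 3, and Mme 63241537 to 63386030 on the plus strand of chromosome 3. Treh meets the end of the oppositely transcribed Phldb1, and Dpp4 overlaps an antisense transcript, Gm13561. Anpep overlaps Gm44974 on its own strand, and Enpep overlaps the pseudogene Gm42628 on the opposite strand. Whether the counting used strand is not given in the sources used here. In each of the 9 genes, 0 of 451 words of 50 bases from the last 500 bases of the transcript were shared with another gene, Alpi and its neighbour Alppl2 included.

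The 250 bases before the RefSeq start (GRCm38.p6) of 4 genes are printed here because these 4 genes show the patterns described below: Sis in endocrine cells before birth, Lct and Alpi in fetal enterocytes, and Treh mainly in the adult. They run 5′ to 3′ on the strand of the gene, from chr3:72967864-72968113 (minus), chr1:128328319-128328568 (minus), chr1:87101607-87101856 (minus) and chr9:44672983-44673232 (plus). Capitals mark matches on either strand to 3 words of 6 bases, TTTATG for CDX, CAAAGT for HNF4 and AGATAA for GATA factors.
Sis: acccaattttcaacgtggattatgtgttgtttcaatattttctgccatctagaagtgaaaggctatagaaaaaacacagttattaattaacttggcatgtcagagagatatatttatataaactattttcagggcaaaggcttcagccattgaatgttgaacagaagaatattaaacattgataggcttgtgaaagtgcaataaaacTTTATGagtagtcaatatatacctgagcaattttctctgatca
Lct: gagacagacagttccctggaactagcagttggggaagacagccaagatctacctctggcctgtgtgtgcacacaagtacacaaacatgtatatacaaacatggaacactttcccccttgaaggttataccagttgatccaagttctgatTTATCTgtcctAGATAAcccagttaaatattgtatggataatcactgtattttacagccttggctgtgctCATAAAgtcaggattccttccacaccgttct
Alpi: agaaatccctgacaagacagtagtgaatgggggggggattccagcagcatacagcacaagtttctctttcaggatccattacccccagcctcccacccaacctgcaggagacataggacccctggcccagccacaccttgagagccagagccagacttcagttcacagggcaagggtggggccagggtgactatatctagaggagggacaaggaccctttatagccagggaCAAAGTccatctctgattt
Treh: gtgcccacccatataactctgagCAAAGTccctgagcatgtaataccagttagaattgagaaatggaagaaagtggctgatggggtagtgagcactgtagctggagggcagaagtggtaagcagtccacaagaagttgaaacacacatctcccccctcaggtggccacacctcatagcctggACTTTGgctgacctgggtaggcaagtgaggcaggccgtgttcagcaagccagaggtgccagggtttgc

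The Sis window held the CDX word at 43 to 38 bases before the start. The Lct window held the CDX word at 31 to 26 bases and the GATA word at 90 to 85 and at 101 to 96 bases. The HNF4 word stood 19 to 14 bases before the start of Alpi, and in Treh at 68 to 63 and at 227 to 222 bases. Over the 9 genes, the CDX word was found in 2, HNF4 in 3 and GATA in 3. The 9 genes had 11 windows, because Mme had 3 starts, and Mme held the HNF4 word in window 2 only. The shares that follow are per window and not per gene. Among 32851 windows of the same length before RefSeq starts, 10.8% held the CDX word, 12.6% the HNF4 word and 9.99% the GATA word. These are matches of letters and were not tested as binding sites.

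From E12.5 to E17.5, 7 of the 9 enzymes were at least 2-fold higher and none was lower, where 13.1% of all genes with at least 10 UMIs were higher and 14.5% lower. The 7 were Sis, Lct, Mgam, Alpi, Anpep, Enpep and Mme. Here and below, a gene is called higher or lower when log2((CPM + 1)/(CPM + 1)) of the summed UMIs reached 1 in size and the higher library held at least 10 UMIs. The median of this log2 ratio was 2.91 over the 9 enzymes and -0.15 over all genes.

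**Figure D1:**
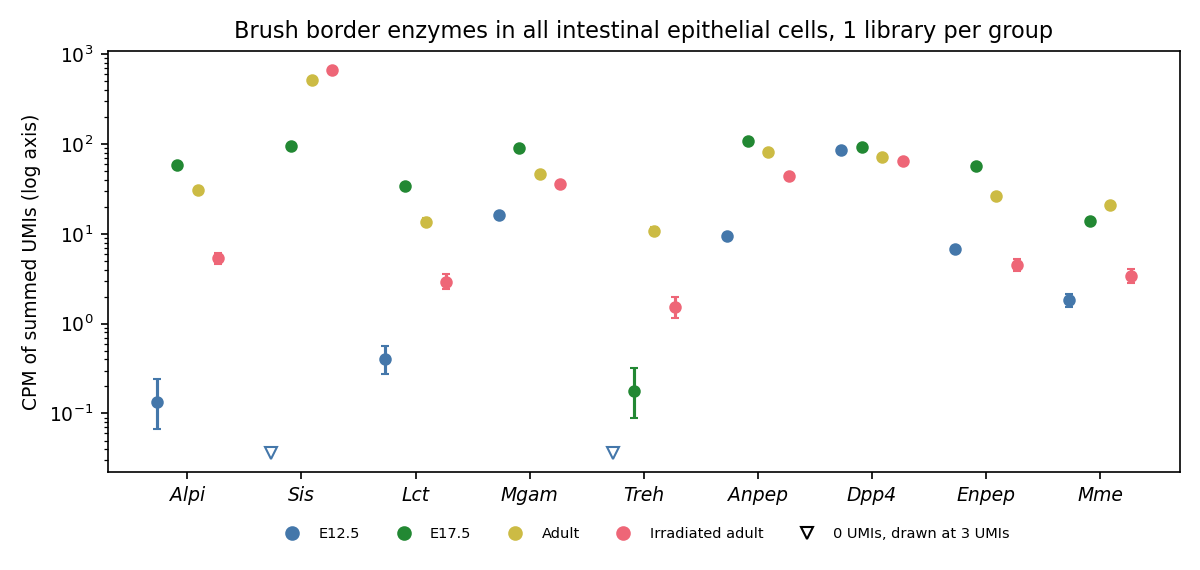
Level of each of the 9 enzymes in the intestinal epithelial cells of each library, as CPM of summed UMIs on a log axis; bars are exact 95% Poisson intervals, and open triangles stand for 0 UMIs, drawn at the level of 3 UMIs. Dpp4 was between 65.1 and 93.7 CPM in all 4 libraries, while Sis went from 0 UMIs at E12.5 to 664 CPM in the irradiated adult.

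Among the glycosidases, Sis (which cuts sucrose and the branch points of starch) had 0 UMIs at E12.5, 94.7 CPM at E17.5, 520 CPM in adults and 664 CPM in irradiated adults. With the 0 of 82154356 UMIs at E12.5 set to a floor of 3 UMIs (0.0365 CPM), Sis was 2593-fold higher in the whole E17.5 library. The exact 95% interval at E12.5 ended at 0.0449 CPM. Enteroendocrine-like cells numbered 11 at E12.5 and 1363 at E17.5. In those 11 cells, whose top genes included the islet markers Ins1 and Iapp, 0 Sis UMIs left an interval that ended at 18.6 CPM. The part of this make-up in the ratio was not tested. Lct, which cuts lactose, stood at 0.402 CPM (33 UMIs), 33.9, 13.7 and 2.94 CPM in the same order. Its highest level was in the E17.5 library. Mgam, which releases glucose from the ends of starch chains, was present at 16.4 CPM at E12.5 and reached 89.5, 46.3 and 36.1 CPM in the later libraries. Treh, which cuts trehalose, had 0 UMIs at E12.5, 11 UMIs at E17.5 (0.177 CPM), 10.8 CPM in adults and 1.52 CPM in irradiated adults.

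Alpi, the phosphatase of the microvillus membrane, was at 0.134 CPM (11 UMIs) at E12.5, 59.3 CPM at E17.5, 31.1 CPM in adults and 5.34 CPM in irradiated adults. Lct, Mgam and Alpi thus had the same order of libraries, with E17.5 highest and E12.5 lowest, and so had the peptidase Anpep.

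Of the peptidases, Anpep, which removes neutral residues from the N-terminus, stood at 9.51, 108, 82.7 and 44.3 CPM in the order of the libraries above. Enpep, which removes acidic residues, stood at 6.82, 57.6, 26.5 and 4.49 CPM. Mme, which cuts within small peptides, was the lowest of the 4 peptidases in each library, at 1.83, 14.0, 20.8 and 3.43 CPM. Dpp4 was the peptidase whose level hardly differed before birth. It was 85.8 CPM (83.8 to 87.8) at E12.5, 93.7 (91.3 to 96.2) at E17.5, 72.7 (69.7 to 75.9) in adults and 65.1 (62.6 to 67.7) in irradiated adults. At E12.5 it was the highest of the 9 enzymes, and all 14 clusters there held it, at 22.4 to 159 CPM. The log2 ratio of Dpp4 at E17.5 over E12.5, 0.13, became -0.04 to -0.08 under 3 other ways of choosing or weighting cells.

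From E17.5 to the adult, 2 of the 9 enzymes were at least 2-fold higher (12.6% of all genes) and 2 were lower (12.5% of all genes). Those higher were Sis (log2 ratio 2.45) and Treh (3.33), and those lower were Lct (-1.25) and Enpep (-1.09). The number lower ranged from 0 to 4 with other settings, for which the shares of all genes are not given here. The log2 ratio of Sis was 1.17 when each cell was given the same weight. Enterocyte-like cells were 20.7% of the epithelial cells compared at E17.5 and 1.58% in the adult, and enteroendocrine-like cells were 39.3% and 58.1%. The part of this make-up in the ratios of whole libraries was not tested, and the levels within each class are given next.

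Nearly all of the Sis of the E17.5 library was in enteroendocrine-like cells, and little was in enterocyte-like cells. Enteroendocrine cells are the scattered hormone-secreting cells of the gut epithelium. At E17.5, Sis was at 549 CPM (535 to 564) in the 1363 enteroendocrine-like cells and at 2.07 CPM (1.46 to 2.85) in the 717 enterocyte-like cells. The former held 5718 of the 5894 Sis UMIs of the library (97.0%) and 14.4% of all UMIs. After every cell was thinned to 2000 UMIs, Sis was detected in 52.6% of 1325 enteroendocrine-like cells (49.9 to 55.3, exact Clopper-Pearson, 38 shallower cells left out) and in 0.473% of 634 enterocyte-like cells (0.0977 to 1.38, 83 left out). Without thinning the shares were 69.9% and 2.23%, at median depths of 7377 and 26133 UMIs. The 37 Sis UMIs of the enterocyte-like cells stood at 0.155 per UMI of Chga, the granule protein of endocrine cells. The ratio was 0.198 in the enteroendocrine-like cells themselves, 0.625 in goblet-like cells (10 Sis UMIs) and 0.109 in crypt base columnar-like cells. The part of endocrine RNA in the Sis of the other classes was not tested.

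**Figure D2:**
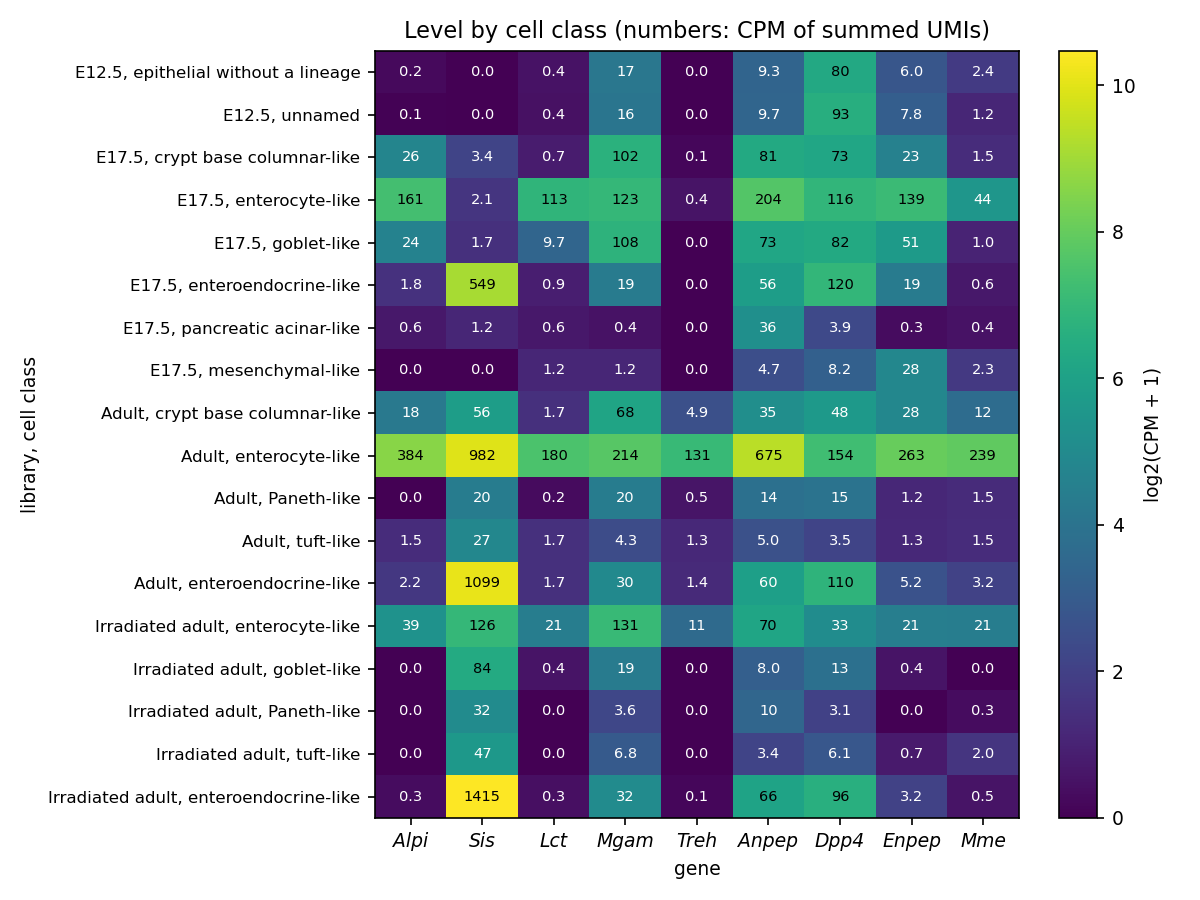
Level of the 9 enzymes by library and cell class, coloured by log2(CPM + 1) and with the CPM printed in each cell. At E17.5 the Sis signal is mainly in the enteroendocrine-like row (549 CPM), and Lct, Alpi, Mme and Enpep are highest in the enterocyte-like row. Dpp4 is at 120 and 116 CPM in these rows. In the adult enterocyte-like row all 9 are above 130 CPM.

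Lct, Mme, Alpi and Enpep showed the opposite arrangement at E17.5. Enterocyte-like cells held 95.7% of the Lct UMIs, 89.5% of those of Mme, 78.2% of those of Alpi and 69.0% of those of Enpep. Levels in the enterocyte-like cells were 113 CPM for Lct, 161 for Alpi, 204 for Anpep, 139 for Enpep, 123 for Mgam, 116 for Dpp4 and 44.0 for Mme. In the enteroendocrine-like cells Lct was at 0.865 CPM (9 UMIs), Alpi at 1.83 CPM and Mme at 0.576 CPM. Enpep and Mgam were at 19.4 and 19.2 CPM there, and Anpep at 55.7 CPM. Dpp4 did not follow this arrangement, at 120 CPM in enteroendocrine-like and 116 CPM in enterocyte-like cells, with overlapping intervals. Sis and Lct therefore stood at 635 UMIs to 1 in enteroendocrine-like cells and at 0.0183 to 1 in enterocyte-like cells.

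Cell by cell, 536 cells of the E17.5 library held at least 5 UMIs of Sis and 173 held at least 5 of Lct. Only 1 cell held both, which was 0.187% of the Sis cells and 0.578% of the Lct cells. By contrast, Lct and Alpi were found together in 123 cells, 71.1% of the Lct cells and 43.2% of the 285 Alpi cells. In the adult, all 26 cells with at least 5 UMIs of Lct also held at least 5 of Sis, out of 735 Sis cells. In the irradiated adult all 5 Lct cells did, out of 1346.

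**Figure D3:**
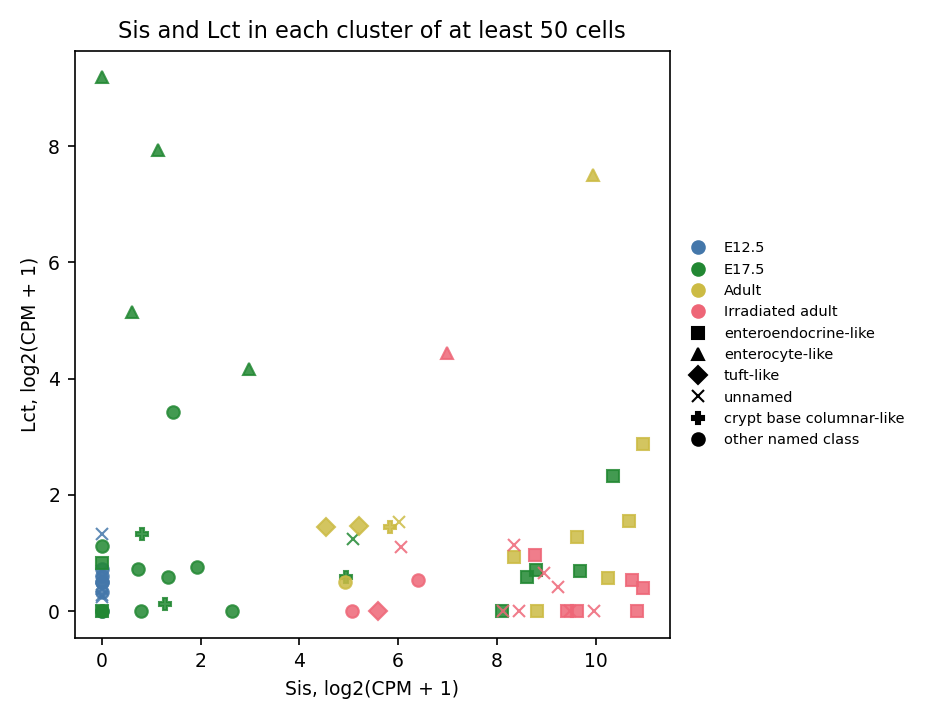
Sis against Lct, both as log2(CPM + 1), in each cluster of at least 50 cells, coloured by library and shaped by cell class. The E17.5 enterocyte-like clusters lie along the Lct axis and the enteroendocrine-like clusters along the Sis axis, and the adult enterocyte-like cluster (982 CPM Sis, 180 CPM Lct) is high on both.

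The 4 enterocyte-like clusters of E17.5 differed from each other. Lct was at 244, 34.4, 16.9 and 580 CPM in the clusters of 263, 241, 125 and 88 cells, and Alpi at 246, 134, 49.6 and 479 CPM in the same order. Mme followed Lct, at 98.1, 14.3, 0.554 and 189 CPM. Enpep did not, at 158, 77.3, 231 and 223 CPM. The cluster of 125 cells was led by Meltf and Npl and had high Enpep with low Lct and almost no Mme, and the cluster of 88 cells was shallow, with a median of 1585.5 UMIs against 11003 in the library. In the 840 crypt base columnar-like cells, the stem cell class marked by Lgr5 and Olfm4, Mgam was at 102 CPM and Anpep at 81.1 CPM while Alpi was at 25.9 CPM and Lct at 0.734 CPM. Mgam therefore differed little between stem-like and enterocyte-like cells (102 against 123 CPM).

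Cells outside the intestinal epithelium carried some of the peptidases at E17.5. Anpep was at 36.3 CPM in 530 pancreatic acinar-like cells, Dpp4 at 225 CPM in 21 mesothelial-like cells and Enpep at 28.1 CPM in 141 mesenchymal-like cells. Sis had 8 UMIs in the acinar-like cells (1.15 CPM) and none in the mesenchymal-like cells.

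In the adult library, Sis was high in both absorptive and endocrine cells. It was at 982 CPM (939 to 1026) in the 57 enterocyte-like cells and at 1099 CPM (1080 to 1118) in the 2089 enteroendocrine-like cells, which held 83.0% of its UMIs. In 973 tuft-like cells it was at 27.4 CPM, in 139 Paneth-like cells at 19.9 CPM and in 207 crypt base columnar-like cells at 56.2 CPM. After thinning, 68.3% of 1618 enteroendocrine-like cells and 5.33% of 900 tuft-like cells had Sis (471 and 73 shallower cells left out), against 71.1% and 12.2% without thinning, at median depths of 3131 and 4111 UMIs. Per UMI of Chga, Sis stood at 0.229 in enteroendocrine-like, 0.353 in tuft-like and 0.234 in Paneth-like cells, and at 8.25 in enterocyte-like cells. How much of the tuft-like and Paneth-like levels was free RNA was not tested. In the irradiated adult the ratio was 0.265 in enteroendocrine-like, 0.0821 in tuft-like and 0.135 in Paneth-like cells.

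Within enterocyte-like cells, 5 of the 9 enzymes were at least 2-fold higher in the adult than at E17.5 (11.3% of all genes) and none was lower (24.0% of all genes). Sis went from 2.07 to 982 CPM (log2 ratio 8.32) and Treh from 0.448 to 131 CPM (6.51). Mme (2.42), Anpep (1.72) and Alpi (1.25) were the others. Lct was at 113 CPM at E17.5 and 180 CPM in the adult (0.66), and at 179.7 and 285 CPM with every cell weighted alike. With coarser clusters (Leiden resolution 0.5), Lct at E17.5 was 183 CPM, its log2 ratio was -0.02 and that of Alpi was 0.89, short of the threshold. Lct was thus not called lower within the class, as it was in the whole adult library. The adult class was 1 cluster of 57 cells led by Reg1, Apoa4 and Reg3b, and the E17.5 class was 4 clusters led by Lct, Creb3l3, Meltf and Apoa4.

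In the enteroendocrine-like cells, Sis was 549 CPM at E17.5 and 1099 CPM in the adult, a log2 ratio of 1.00 that fell just short of the threshold. Treh (1.24, at 1.36 CPM in the adult) and Mme (1.43, at 3.24 CPM) were called higher at very low levels (11.6% of all genes), and Enpep was lower (-1.72), at 19.4 and 5.20 CPM (11.1% of all genes). At E17.5, 2 of the enteroendocrine-like clusters, with 206 and 57 cells, held 0 Sis UMIs. The larger was led by Gast, Ppy and Gcg and the smaller by Sst, Ppy and Pyy. Ppy is a hormone gene of the pancreatic islet. Without clusters that had islet markers among their top genes, Sis in the class was 651 CPM.

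The comparisons were repeated over epithelial cells outside the enteroendocrine-like class. There, 7 enzymes were higher at E17.5 than at E12.5 (11.0% of all genes) and none lower (17.3% of all genes), the same 7 as above. Sis was at 3.1 CPM at E17.5 (160 UMIs, 0.117 per UMI of Chga), and the part of endocrine RNA in it was not tested. From E17.5 to the adult, Sis and Treh were higher (10.4% of all genes), Sis going to 146 CPM, and none was lower (14.2% of all genes). Clusters with endocrine markers that had been left unnamed were then also taken out. There, Dpp4 alone was lower (15.5% of all genes), at 87.1 and 40.8 CPM. In crypt base columnar-like cells, Sis, Treh and Mme were higher (8.31% of all genes) and Anpep was lower (6.27% of all genes), at 81.1 and 35.1 CPM, but the adult class was 1 cluster led by the cell cycle genes Cenpf and Mki67 and the E17.5 clusters were led by Olfm4 and Lgr5.

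The endocrine clusters differed in their enzymes by the hormone gene they held. In each of the 3 later libraries, the cluster with the highest level of Tph1, Cck, Gcg, Gip or Sst was taken. Among these 5 kinds Sis was highest in the Tph1 and Cck clusters and lowest in the Sst cluster of each library. Tph1, the enzyme of serotonin synthesis, marks enterochromaffin cells, and Sis was at 1312, 1624 and 1697 CPM in the clusters with the most of it. The Cck clusters (cholecystokinin) had 826, 1980 and 1840 CPM, and the Gcg clusters (proglucagon, the source of GLP-1) 387, 1209 and 681 CPM. The Gip clusters (glucose-dependent insulinotropic peptide) had 444, 449 and 438 CPM, with overlapping intervals. The Sst clusters (somatostatin) had 32.8, 63.5 and 65.5 CPM. They stayed unnamed because markers of islet or liver were among their top genes. A choice by 1 gene need not follow 1 cell type across libraries. The adult Gcg cluster was led by Nts, Ghrl and Pyy, without Gcg among its top genes. The adult Cck cluster was led by Cyp2j5 and Nts, and the irradiated one by Pyy and Ffar1. An irradiated cluster of 211 cells led by Cyp2j5 and Pzp had 1986 CPM of Sis and was outside the 5 kinds.

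Dpp4 ran in another order. It was highest in the Gip clusters, at 195, 202 and 197 CPM in the same order of libraries, and in the Sst clusters, at 178, 171 and 160 CPM. Of the 5 kinds it was lowest in the clusters with the most Tph1, at 65.4, 49.5 and 42.2 CPM. The Gip and Sst intervals overlapped in all 3 libraries, and the Tph1 intervals lay below those of Gip in all 3.

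Anpep was highest in the Gcg clusters at E17.5 (128 CPM) and in the adult (188 CPM), and was at 141 CPM there in the irradiated adult, where the Cck cluster had 153 CPM with overlapping intervals. In the Tph1 clusters it was at 18.1, 13.4 and 16.3 CPM and in the Gip clusters at 25.6, 32.3 and 15.2 CPM. Tph1 was also high in 4 further clusters, at 1869 to 2928 CPM, and these had less Sis than the 3 above. At E17.5 a cluster of 161 cells led by Reg4, Tac1 (the gene of substance P) and Tph1 had 273 CPM of Sis (242 to 308), below the Gcg and Gip clusters, with 152 CPM of Dpp4 and 9.12 CPM of Anpep. The adult cluster of 236 cells had 785 CPM of Sis, 35.2 CPM of Dpp4 and 9.86 CPM of Anpep. In the irradiated adult, a cluster of 149 cells that also held much Tac1 had 494 CPM of Sis, 134 CPM of Dpp4 and 13.4 CPM of Anpep, and a cluster of 66 cells had 708, 87.8 and 12.5 CPM. In these 7 clusters, with Tph1 at 1869 to 5723 CPM, Anpep was thus at 9.12 to 18.1 CPM. Sis ranged there from 273 to 1697 CPM and Dpp4 from 35.2 to 152 CPM. Clusters with less Tph1 went either way in Anpep. It was at 78.3 CPM in an irradiated cluster with 861 CPM of Tph1 and at 69.5 CPM in an adult one with 656 CPM. The irradiated Gip cluster, with 29.4 CPM of Tph1, had 15.2 CPM of Anpep, so low Anpep was not particular to high Tph1.

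**Figure D4:**
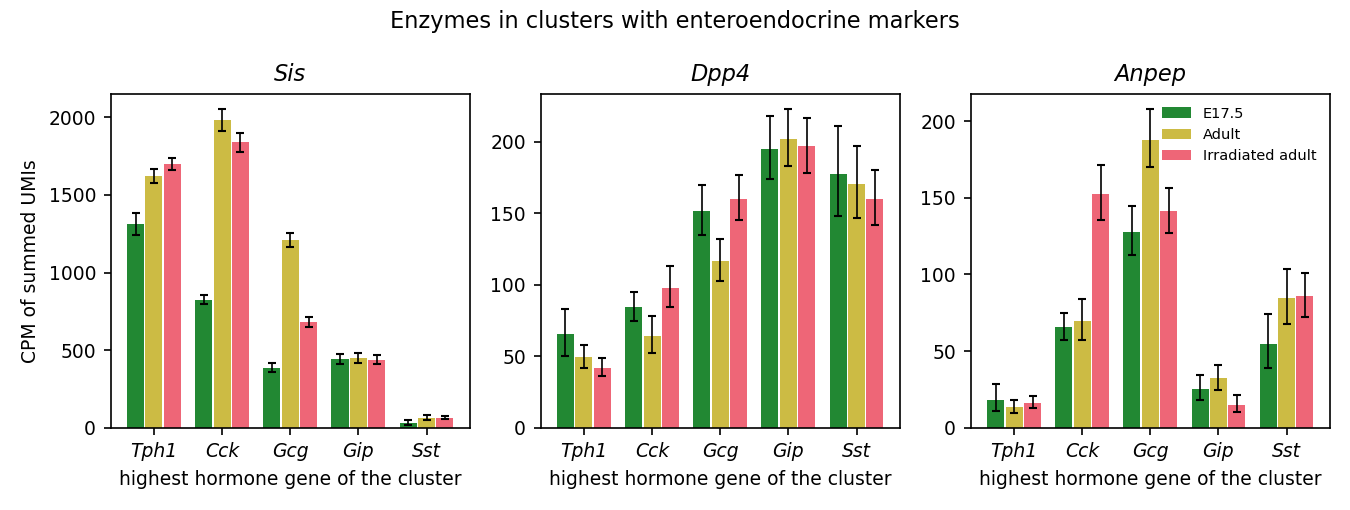
Sis, Dpp4 and Anpep in CPM of summed UMIs in the clusters with the highest Tph1, Cck, Gcg, Gip and Sst in 3 libraries; bars start at 0 and error bars are exact 95% Poisson intervals. Sis is lowest in the Sst clusters (32.8 to 65.5 CPM) and Dpp4 is lowest in the Tph1 clusters (42.2 to 65.4 CPM) in each library.

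In the irradiated adult library, none of the 9 enzymes was at least 2-fold higher than in the adult library (2.59% of all genes) and 5 were lower (4.78% of all genes): Alpi (log2 ratio -2.34), Enpep (-2.33), Mme (-2.30), Treh (-2.23) and Lct (-1.90). Sis (0.35), Dpp4 (-0.16), Mgam (-0.35) and Anpep (-0.89) were called in neither direction. The median over the 9 was -1.90, against -0.04 over all genes. With a pseudocount of 10 CPM in place of 1, the number lower was 3, and the share of all genes for it is not given here.

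Within enterocyte-like cells, 8 of the 9 enzymes were lower after irradiation, where 11.0% of all genes were lower and 26.7% higher. Alpi was at 384 CPM in the adult and 39.4 CPM in the irradiated adult, Anpep at 675 and 70.4 CPM, Enpep at 263 and 21.0 CPM, Mme at 239 and 20.6 CPM, and Treh at 131 and 11.3 CPM. Lct was at 180 and 20.8 CPM and Sis at 982 and 126 CPM. Dpp4 was at 154 and 33.2 CPM. Mgam was the only enzyme not called, at 214 and 131 CPM (log2 ratio -0.70). With every cell weighted alike, adult and irradiated levels were 734 and 157 CPM for Anpep, 242 and 78.9 for Enpep, and 285 and 50.6 for Lct. Mme was at 292 and 40.0 CPM, Treh at 182 and 20.2, and Dpp4 at 160 and 55.2. Alpi was then at 470 and 37.9 CPM, Sis at 1183 and 170, and Mgam at 225 and 154. The irradiated class was 1 cluster of 93 cells in which Aadac, Anxa8, Il33 and Krt15 led and Apoa4 was the only enterocyte marker among the 10 leading genes. Its 10 enterocyte markers were all detected and summed to 9105 CPM, against 49413 CPM in the adult class, so the enzymes and the markers that named the class were lower together. Alpi was detected in 53 of 57 adult and 17 of 93 irradiated cells of the class (93.0% and 18.3%). After thinning to 2000 UMIs, which left out 7 and 4 shallower cells, it was detected in 25 of 50 and 4 of 89 cells. In the whole irradiated library 4 cells held 50% of the Alpi UMIs and 3 cells those of Lct, against 14 and 10 cells in the adult. Mgam, by contrast, was detected in 87.7% and 87.1% of the cells of the class before thinning and in 32.0% and 23.6% after it. Sis stood there at 0.245 per UMI of Chga, against 0.265 in the enteroendocrine-like cells of the same library, and the part of endocrine RNA in the 126 CPM was not tested.

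**Figure D5:**
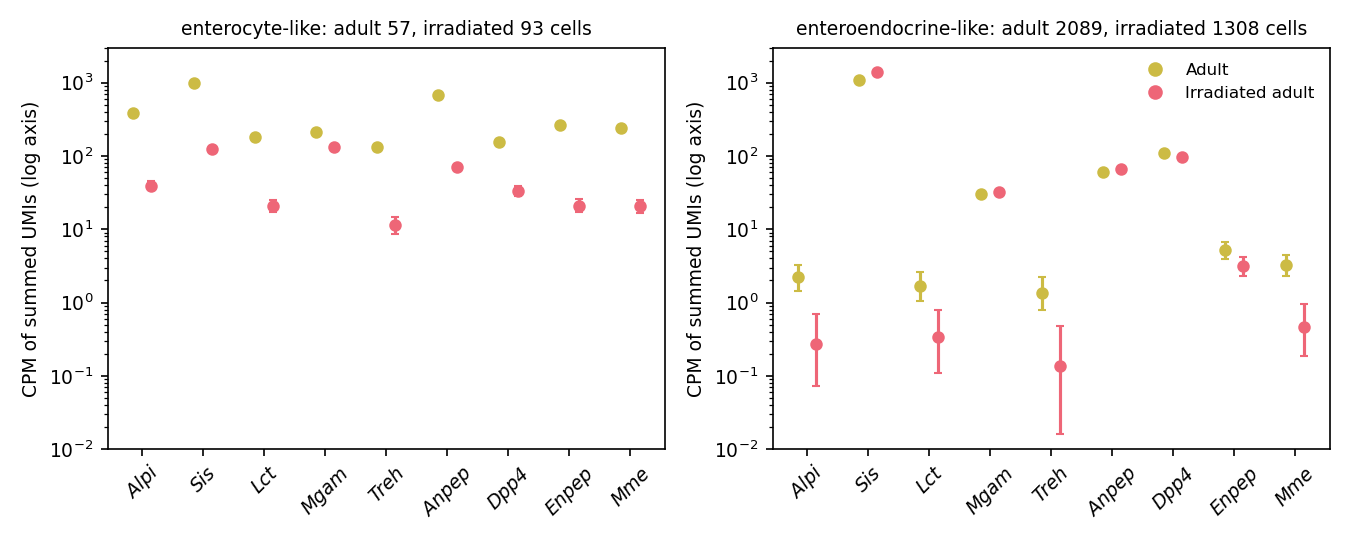
CPM of summed UMIs on a log axis for the 9 enzymes in enterocyte-like cells (left) and enteroendocrine-like cells (right) of the adult and irradiated adult libraries, with exact 95% Poisson intervals. In enterocyte-like cells 8 of 9 enzymes are at least 2-fold lower after irradiation, while in enteroendocrine-like cells Sis, Mgam, Anpep and Dpp4 lie close together.

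In enteroendocrine-like cells, Sis was at 1099 CPM in the adult and 1415 CPM (1396 to 1434) in the irradiated adult (log2 ratio 0.36). The class held different clusters in the 2 libraries. In the adult, 904 of its 2089 cells were 1 shallow cluster (median 2315.5 UMIs) led by Meg3, Rfx6 and Pclo, with 323 CPM of Sis. The irradiated cluster that shared Rfx6, Pclo, Sphkap, Klhl31 and Slfn8 among its top genes (293 cells, 324 CPM of Sis) was left unnamed for its low depth, as were 4 further clusters with endocrine markers for their depth or for islet or liver genes, 765 cells in all. With all such clusters put back in each library, Sis was at 1013 and 1158 CPM (0.19). Dpp4 was at 110 and 95.6 CPM, Anpep at 59.6 and 66.1 CPM and Mgam at 30.4 and 31.7 CPM. None was higher (1.46% of all genes). Alpi, Lct, Treh and Mme were called lower (4.53% of all genes) from low levels in the adult, 1.36 to 3.24 CPM, where the tuft-like cells of that library had 1.30 to 1.74 CPM of the same 4 genes. With the clusters put back, Alpi, Treh and Mme were lower (2.8% of all genes), Lct was not called (log2 ratio -0.90) and none was higher (1.45% of all genes). In tuft-like and Paneth-like cells, Alpi, Lct, Treh, Enpep and Mme were below the minimum of UMIs and could not be called. Of Sis, Mgam, Anpep and Dpp4, none was called in either direction in tuft-like cells (4.05% of all genes higher, 3.29% lower). In Paneth-like cells none of them was higher (3.93% of all genes) and 2 were lower (24.0% of all genes). These were Mgam at 20.2 and 3.63 CPM and Dpp4 at 14.8 and 3.08 CPM. A further 196 irradiated cells carried endocrine and tuft markers together, had 602 CPM of Sis and were also left unnamed.

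In all epithelial cells outside the enteroendocrine-like class, none was higher (9.56% of all genes) and 6 were lower (7.21% of all genes), the 5 of the whole library and Anpep, at 97.7 and 30.7 CPM. These sets were unlike, since 1167 of the 1723 irradiated cells were unnamed, and they held 84553 UMIs of Chga against 1958 in the adult. Without the unnamed endocrine clusters and the cells with both kinds of marker, 762 irradiated and 1376 adult cells remained, with 7448 and 1593 UMIs of Chga. There, none was higher (5.25% of all genes) and 7 were lower (12.7% of all genes), the same 6 and Dpp4, at 40.8 and 14.9 CPM. Sis changed sign with the cells taken, from a log2 ratio of 0.41 (146 and 194 CPM) to -0.99 (151 and 75.1 CPM).

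Other genes of the apical surface were taken from 5 lists, over all epithelial cells of a library. The shares of all genes called, given above for whole libraries, were 13.1% higher and 14.5% lower from E12.5 to E17.5, 12.6% and 12.5% from E17.5 to the adult, and 2.59% and 4.78% after irradiation, and each count below is to be set beside them. Of 11 other apical hydrolases with at least 10 UMIs, 9 were higher and none lower from E12.5 to E17.5, among them Mep1a (2.51 to 51.9 CPM), a subunit of meprin. From E17.5 to the adult, 4 of 13 were higher and 2 lower. Nt5e, an ectonucleotidase, went from 11.5 to 81.0 CPM. After irradiation 1 of 13 was higher (Naaladl1, 0.939 to 9.68 CPM) and 4 were lower, among them Dpep1 (19.3 to 5.06 CPM) and Ggt1 (21.1 to 5.96 CPM). Nt5e had the same split as Sis at E17.5, at 66.8 CPM in enteroendocrine-like and 0.392 CPM in enterocyte-like cells.

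Of 12 apical nutrient transporters, 11 were higher at E17.5 than at E12.5 and none lower, led by Slc6a19 (0.0122 to 30.8 CPM), the neutral amino acid transporter, and Slc7a9 (3.38 to 99.2 CPM), the light chain of the cystine transporter. In the adult, 4 were higher and 3 lower than at E17.5, with Slc15a1, the peptide transporter, at 10.9 and then 45.6 CPM. After irradiation 1 was higher and 4 were lower, among them Slc6a20a (11.1 to 1.21 CPM). The 13 genes of the microvillus skeleton and its adhesion complex split 9 higher and 1 lower from E12.5 to E17.5, 5 and 1 from E17.5 to the adult, and 0 and 0 after irradiation. Myo1a, the motor that ties the actin core to the membrane, went from 0.377 to 40.5 CPM before birth, and Espn, an actin bundler, from 99.2 to 36.3 CPM. Of 9 relatives of the 9 enzymes, 3 were higher and 1 lower at E17.5, and the one that was lower was Alpl, the tissue-nonspecific phosphatase, at 31.1 and then 0.306 CPM, the reverse of Alpi.

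Among 17 transcription factors of enterocytes, 6 were higher and 2 lower at E17.5 than at E12.5 (13.1% and 14.5% of all genes), with Creb3l3 (0.0487 to 77.8 CPM) and Cdx1 (1.03 to 91.7 CPM) in the lead. From E17.5 to the adult, 2 were higher and 7 lower (12.6% and 12.5% of all genes). Prdm1, a repressor known from the switch at weaning, went from 38.7 to 0.470 CPM, and Klf4 from 47.0 to 348 CPM. After irradiation 0 were higher and 1 lower (2.59% and 4.78% of all genes), Maf (24.3 to 6.17 CPM). At E17.5, Creb3l3 was at 249 CPM in enterocyte-like and 3.27 CPM in enteroendocrine-like cells, Maf at 168 and 7.01 CPM and Prdm1 at 61.8 and 5.38 CPM. Factors of the CDX, HNF4 and GATA families were present in both classes: Cdx2 was at 228 and 165 CPM, Hnf4a at 87.6 and 59.9 CPM, and Gata4 at 37.1 and 21.2 CPM in the same order.

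Likeness of pattern was measured as Pearson's r of log2(CPM + 1) over the 65 clusters of at least 50 cells in the 4 libraries, among 13729 genes with at least 200 UMIs. Clusters of a library share its depth and its free RNA, so r is a description. Sis was closest to Adgrg4, an adhesion receptor (r = 0.96), Gm15200 (0.94) and Sct, the gene of secretin (0.94). Alpi was closest to Slc26a3, the chloride-bicarbonate exchanger (0.90), Slc5a11 (0.88) and Gm21885 (0.88), and Lct to 2010106E10Rik (0.91), Ifit1bl2 (0.91) and Lrrc19 (0.89). Treh was closest to Cyp2b10 (0.90), Apol10a (0.89) and Reg3a (0.85), and Mgam to Rab17 (0.86), Pla2g12b (0.85) and Apob (0.85). The peptidases had weaker partners. Anpep was closest to Acot4 (0.76), Mep1a (0.73) and Acsl1 (0.72), Dpp4 to Clcn5 (0.78), Rhpn2 (0.78) and Cldn23 (0.78), Enpep to Fahd1 (0.76), Alpi (0.74) and Chpt1 (0.73), and Mme to 2010106E10Rik (0.73), Bst1 (0.72) and Lct (0.71). Between the 9 enzymes, r was 0.82 for Alpi and Lct and -0.08 for Sis and Lct.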

How the data were processed

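RNA was measured in sorted single cells from the intestine of Bmi1-GFP mice, in 1 library for each of 4 groups, by the droplet method of 10x Genomics, per the labels' protocols. The authors deposited raw UMI counts per gene and cell barcode, without normalization. The submitters' processing notes name Cell Ranger 3.1.0 and the mouse build mm10. Totals ran from 38648331 to 90674425 UMIs over 5216 to 6287 barcodes a library.

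Cells needed 500 or more genes and no more than 20% of UMIs from mitochondrial genes. Scrublet scores (scanpy 1.11.5) were used to remove 0.8% of barcodes per 1000 barcodes as putative doublets, because the automatic threshold called between 0 and 0.565% of cells. Each library was clustered without the 9 enzyme genes (2000 variable genes, 30 components, 20 neighbours, Leiden resolution 1, leidenalg 0.10.2). Clusters were named from 19 marker lists, by a mean scaled score of at least 0.5 and at least 3 markers present. Clusters of low depth, led by markers of another class, or with endocrine and tuft markers together were left unnamed by limits set after the clusters were seen, so class names are rebuilt and not the authors'.

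UMIs were summed per library or class and scaled to CPM, with exact 95% Poisson intervals. Shares were taken after thinning to 2000 UMIs. Of each gene list, the 2 highest and 2 lowest log2 ratios with at least 50 UMIs could be named, and some are not reported here. The factors named for promoter words and class levels of list genes were chosen after their values were seen. The members and lists were chosen with earlier results of these data known. Promoters and positions came from RefSeq and GENCODE tables of GRCm38; 99.9% of feature IDs matched. TMM factors for an alternative came from edgeR 4.0.16. Scripts were tested on simulated data.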

Additional observations from a re-analysis of the deposited data

How the results depend on the processing

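Results were recomputed under 12 other settings. A further 3 were chosen after seeing the data. Leaving out clusters with islet markers among their top genes, or clusters of low depth, kept every count of called enzymes between libraries. Putting unnamed endocrine clusters back in their class moved Sis there as given above. The 7 enzymes higher at E17.5, the 2 higher in the adult and the 0 higher after irradiation stayed within 1.5 times their count under all of them. The 2 enzymes lower in the adult than at E17.5 became 0 with every deposited barcode and 0 with a pseudocount of 10 CPM, 1 with all kept cells, and 4 with at least 1000 genes and at most 10% mitochondrial UMIs, with cells weighted alike (the mean of per-cell CPM), without mitochondrial and ribosomal protein genes, and at 1.5-fold. The 5 lower after irradiation became 3 with a pseudocount of 10 CPM. Shares of all genes under these settings are not given here, so the shifts cannot be set beside them. The causes of these shifts were not tested. Of 297 library ratios of single enzymes under the alternatives, 6 had the other sign. They were Dpp4 from E12.5 to E17.5 in 3, Mme from E17.5 to the adult in 2 (-0.54 with the stricter filter, -0.72 with cells weighted alike, against 0.53) and Mgam after irradiation in 1 (0.14 against -0.35). No paired analysis was possible because each group has 1 library. The adult enterocyte-like class of 57 cells and the 1 library per group limit every comparison that uses them.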
